A study of Mus musculus with 31 samples.

Results

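The genes described here encode heterogeneous nuclear ribonucleoproteins (hnRNPs) and serine/arginine-rich (SR) splicing factors. They were chosen by name: protein-coding genes of the GENCODE M21 annotation whose symbol begins with Hnrnp, or with Srsf and a digit, without symbols that contain -ps. The rule found 31 genes, 20 hnRNP and 11 SR genes, among 22028 protein-coding genes and 55536 gene identifiers in the count tables, and dropped 2 symbols with -ps. All 31 passed the low-count filter and were tested in each of the 12 comparisons below.

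The study pulled down tagged ribosomes of mouse sensory neurons (translating ribosome affinity purification, TRAP) and sequenced the RNA bound to them. Nav1.8-Cre;L10a-eGFP-fl/fl mice (Cre) carried a Cre recombinase driven from the gene of the sodium channel Nav1.8, with a floxed allele of ribosomal protein L10a fused to eGFP, so that the tag is switched on in neurons that express or have expressed Nav1.8. The negative control, L10a-eGFP-fl/fl mice, carried the same allele without Cre. Lumbar dorsal roots with spinal cord gave the central axon libraries, the sciatic nerve gave the peripheral axon libraries, and lumbar dorsal root ganglia gave the soma libraries. The 31 libraries formed 8 groups of 4, except that the peripheral axon controls had 3. Central axons shared batch 1 with 1 set of somas (16 libraries with their controls) and peripheral axons shared batch 2 with a separate set (15 libraries with theirs), so axon type and batch cannot be told apart without the somas of each batch. Replicates are labelled as biological; age, sex and pooling of animals are not given in the sources used here.

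hnRNPs bind nascent RNA polymerase II transcripts, and many of them silence splice sites, package pre-mRNA and accompany mRNA to the cytoplasm. SR proteins bind exonic enhancers through RNA recognition motifs and recruit the spliceosome through their arginine/serine-rich domain, which kinases of the SRPK and CLK families phosphorylate. Several members of both families shuttle between nucleus and cytoplasm and take part in mRNA export, transport and translation. In neurons, hnRNP A2/B1 is known for binding sequences that direct mRNAs into processes, and hnRNP K for controlling mRNAs of the axonal cytoskeleton. The libraries report mRNA recovered with ribosomes, not these proteins.

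Library totals ran from 3.60 to 19.6 M counts, and values below are CPM (a gene's count over the library total, in the usual CPM unit) unless stated otherwise. At least 29 of the 31 genes had 10 or more counts in every library outside the batch 1 soma controls, where 23 to 28 did. Soma control replicate 3 of batch 1 stood apart, with a TMM factor of 0.0547 beside 1.30 to 1.78 for the other libraries of its comparison, and the differences named below as nearest to the threshold in a comparison that uses it are given with and without it. Nociceptor markers summed to between 7201 and 11576 CPM in Cre somas and to between 1041 and 8668 CPM in Cre axons. None of the 9 listed genes was at 0 in a whole Cre group, but soma controls also held 4045 to 10997 CPM. Central axon controls, at 380 to 1339 CPM, lay below central axon Cre libraries, at 1688 to 8668 CPM, with Trpv1 and Scn11a at 0 in the controls. Peripheral axon controls, at 523 to 3499 CPM, overlapped peripheral axon Cre libraries, at 1041 to 4379 CPM. Spinal neuron markers were detected in central axon Cre libraries, at 89.6 to 310 CPM, and Schwann cell markers in peripheral axon Cre libraries, at 10812 to 28473 CPM. In such bulk samples fewer cells of a type and less RNA per cell cannot be told apart.

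**Figure D1:**
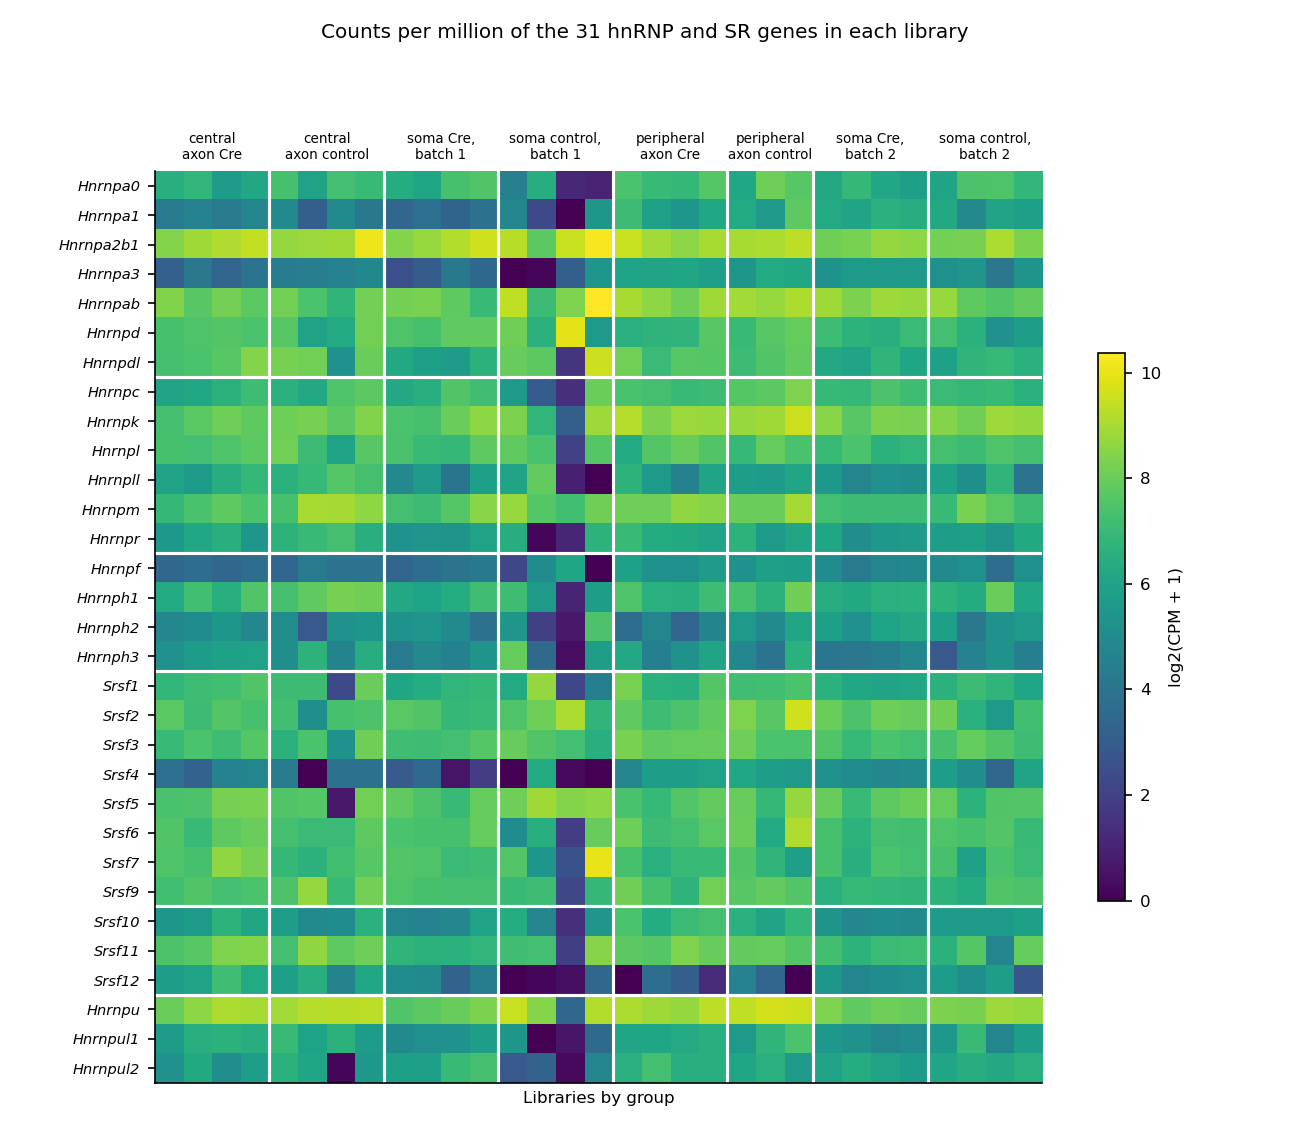
Level of each of the 31 genes (rows, grouped by type, white lines between types) in each of the 31 libraries (columns, grouped by tissue and genotype). Colour gives log2(CPM + 1); dark cells are low. Srsf12 is dark in peripheral axons, most genes are dark in soma control replicate 3 of batch 1, and Hnrnpa1, Hnrnpa3 and Hnrnpf are darker in Cre libraries of batch 1 (left) than of batch 2 (right).

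All genes together took a similar small share of the counts in the Cre somas of both batches, 0.385% ± 0.0686 (SD, n = 4) in batch 1 and 0.385% ± 0.0421 (SD, n = 4) in batch 2. The share was 0.464% ± 0.0893 (SD, n = 4) in central axon Cre libraries and 0.553% ± 0.0909 (SD, n = 4) in peripheral axon Cre libraries. Peripheral axon Cre libraries, at 0.463 to 0.651%, did not overlap the Cre somas of their batch, at 0.323 to 0.414%, whereas central axon Cre libraries, at 0.366 to 0.549%, overlapped theirs, at 0.338 to 0.485%. The controls were not below the Cre libraries: the mean was 0.521% in central axon controls, 0.657% in peripheral axon controls, 0.520% in batch 1 soma controls and 0.406% in batch 2 soma controls. The 20 hnRNP genes made up the larger part in each group, 0.253 to 0.450% on average, and the 11 SR genes 0.129 to 0.207%.

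**Figure D2:**
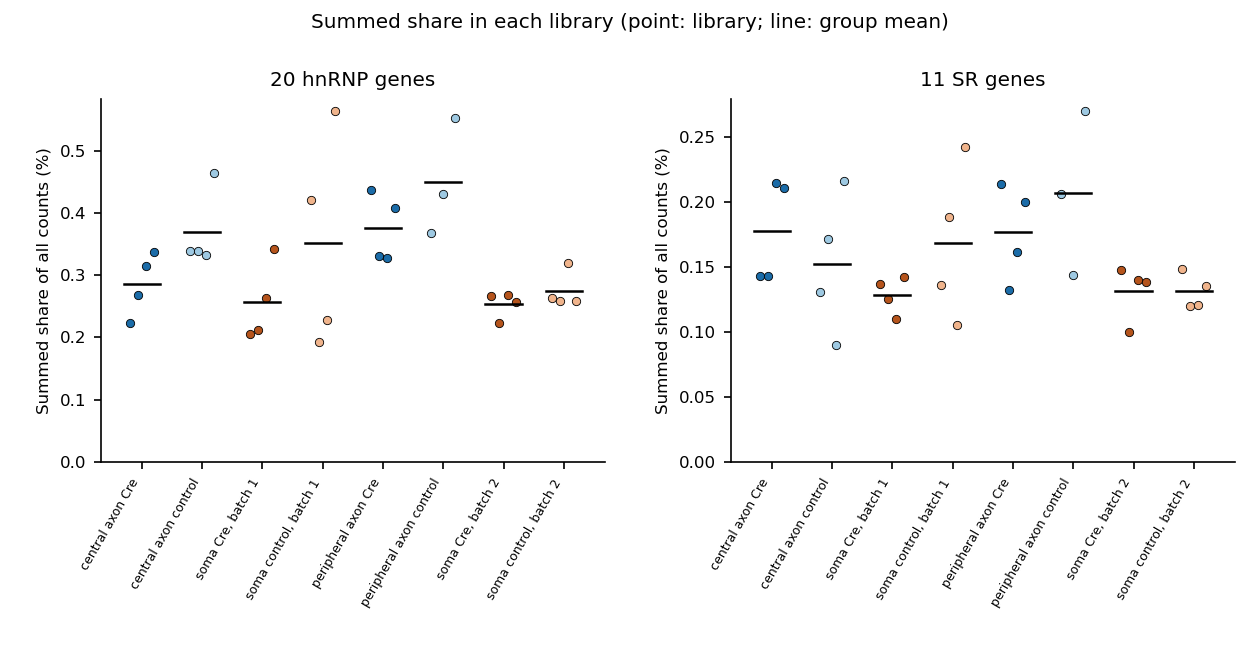
Summed counts of the 20 hnRNP genes (left) and the 11 SR genes (right) as a percentage of all counts, one point per library, with a line at each group mean. Means of the hnRNP genes are higher in each control group than in its Cre group, for instance 0.369% against 0.286% in central axons.

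Levels of different genes were compared per kilobase of annotated exon, scaled to the same sum over all genes in each library (TPM-like units). In the batch 1 Cre somas the highest was Srsf9, a short SR protein gene, at 241 ± 22.5 (SD, n = 4), followed by Hnrnpab, an RNA-binding protein related to hnRNP A/B proteins, at 208 ± 75.9 (SD, n = 4) and Hnrnpa2b1 at 198 ± 73.4 (SD, n = 4). These 3 differed by less than the spread of Hnrnpab. Srsf4 was lowest, at 3.63 ± 3.18 (SD, n = 4). In the batch 2 Cre somas Hnrnpab was highest, at 366 ± 76.2 (SD, n = 4), and Srsf2 and Srsf9 followed at 194 and 160. Phykpl, on the opposite strand, overlaps 29.1% of the exonic bases of Hnrnpab, and Mettl23 and Mfsd11 overlap 25.3% of those of Srsf2. From the Cre somas of batch 1 to those of batch 2 Phykpl was counted at 8.05 and 238 CPM, Mettl23 at 19.7 and 106 CPM and Mfsd11 at 29.7 and 50.9 CPM on average, and the part of these overlaps in the order of levels was not tested. Hnrnpr was lowest there, at 5.41 ± 1.88 (SD, n = 4), although its annotated exons are the longest of the 31 genes, at 22199 bases, which lowers a value per length. Srsf9, Hnrnpab and Hnrnpa2b1 were also the first 3 in both kinds of Cre axon.

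No gene of the 31 was called between the tagged pulldown and its control. In the central axon 0 of 31 were called (adjusted p under 0.05 in edgeR), against 0.0141% of all 14189 genes tested. In the peripheral axon 0 of 31 were called, against 0% of all genes, and in the batch 2 soma 0 of 31, also against 0%. In the batch 1 soma 0 of 31 were called, against 4.42% of all genes. At an unadjusted p under 0.05 the counts were 3 of 31 in the central axon, 1 in the peripheral axon, 6 in the batch 1 soma and 2 in the batch 2 soma, where 4.82%, 3.68%, 15% and 16.4% of all genes passed. DESeq2 and voom also called 0 in each, apart from 2 genes with DESeq2 in the batch 1 soma (Hnrnpab and Hnrnpdl, both lower in Cre).

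The genes nearest to the threshold were named although not called. Hnrnpm, an hnRNP that binds GU-rich RNA, was at 120, 167, 221 and 170 CPM in central axon Cre libraries and at 163, 513, 497 and 386 CPM in their controls, a log2 difference of -1.15 ± 0.38 (SE, adjusted p = 0.605 in edgeR). Hnrnph1 differed there by -0.92 ± 0.38 (SE, adjusted p = 0.921). In the peripheral axon Srsf2 differed by -1.04 ± 0.43 (SE, adjusted p = 1.00), or by -0.44 without control replicate 4, and Hnrnpc by -0.64 ± 0.33 (SE, adjusted p = 1.00). In the batch 2 soma Hnrnpab differed by 0.89 ± 0.33 (SE, adjusted p = 0.209) and Hnrnpa1 by 0.79 ± 0.36 (SE, adjusted p = 0.2995). Hnrnpa2b1 differed between Cre and control by -0.23 in the central axon, -0.05 in the peripheral axon and 0.26 in the batch 2 soma, and Hnrnpk by -0.37, -0.21 and -0.05.

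In the batch 1 soma the fit rested on soma control replicate 3. With it, Hnrnpf differed by -5.20 ± 2.16 (SE, adjusted p = 0.284 in edgeR) and Srsf2 by -4.67 ± 2.04 (SE, adjusted p = 0.306). Without it the values were 0.05 for Hnrnpf and -0.36 for Srsf2, and 1 gene was called, Hnrnpdl, lower in Cre. The median log2 difference of the 31 genes was -1.16 with it, beside -0.45 over all genes, and -0.61 without it, beside 0.37. In the other compartments the medians of the 31 genes and of all genes were 0.03 and 0.11 in the central axon, -0.09 and 0.07 in the peripheral axon, and both 0.06 in the batch 2 soma.

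Hnrnpa2b1 (chromosome 6, 51460932 to 51469894, GRCm38), which encodes hnRNP A2/B1, was at 345, 470, 554 and 684 CPM in central axon Cre libraries and 351, 441, 568 and 774 CPM in the batch 1 Cre somas. It was 720, 485, 377 and 520 CPM in peripheral axon Cre libraries and 280, 313, 425 and 391 CPM in the batch 2 Cre somas. The groups overlapped in both batches. Control libraries held as much, at 423 to 1091 CPM in central and 521 to 639 CPM in peripheral axons. Axon against soma differed by -0.51 ± 0.33 (SE, adjusted p = 0.318 in edgeR) for central and by 0.34 ± 0.28 (SE, adjusted p = 0.373) for peripheral axons. In none of the 12 comparisons was Hnrnpa2b1 called, with log2 differences from -3.46 to 0.68 and adjusted p between 0.292 and 1.00. The lowest value, Cre against control in the batch 1 soma, was -0.53 without soma control replicate 3.

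Hnrnpk (chromosome 13, 58391142 to 58403343), which encodes the poly(C)-binding hnRNP K, was at 158, 207, 268 and 219 CPM in central axon Cre libraries and at 171, 163, 257 and 387 CPM in the batch 1 Cre somas. It was at 597, 317, 448 and 436 CPM in peripheral axon Cre libraries and at 368, 202, 317 and 312 CPM in the batch 2 Cre somas. These groups overlapped as well. Axon against soma differed by -0.64 ± 0.33 (SE, adjusted p = 0.212 in edgeR) for central and by 0.37 ± 0.28 (SE, adjusted p = 0.325) for peripheral axons. Peripheral axon controls, at 435, 479 and 750 CPM, were not below the Cre libraries. Hnrnpk was called in none of the 12 comparisons, with log2 differences from -0.64 to 0.84 and adjusted p between 0.188 and 1.00.

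Central axons and somas of the Cre mice differed in 3 of the 31 genes: Hnrnpdl and Srsf12 were higher in the axon, and Hnrnpul2 was lower. Over all 14480 genes tested 13.7% were called, 8.63% higher and 5.11% lower, so the count of 3 in 31 is not above the background. Axon and soma libraries did not overlap, after TMM scaling, in 8 of 31 genes, against 22.1% of all genes. The median log2 difference of the 31 genes was -0.22 beside 0.05 over all genes, and 13 of 31 were positive. By type the medians were -0.29 for the 7 A/B and D type genes, -0.19 for the 4 F/H type genes, -0.47 for the 6 other RNA-binding hnRNPs, 0.35 for the 3 U type genes, -0.23 for the 8 SR proteins and 0.87 for the 3 SR-related genes. With library totals as the only scaling, the median was 0.50 over all genes and 0.27 over the 31 genes, and the calls were 4 higher and 0 lower instead of 2 higher and 1 lower, against 14.8% of all genes higher and 2.02% lower, with Hnrnpul2 at -0.99 (adjusted p = 0.113 in edgeR).

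Hnrnpdl (chromosome 5, 100033577 to 100039664) encodes an hnRNP D-like protein that binds AU-rich RNA. It was at 159, 172, 203 and 348 CPM in the central axon Cre libraries and at 77.6, 58.4, 50.3 and 99.4 CPM in the Cre somas, so every axon library lay above every soma library. The log2 difference was 1.17 ± 0.32 (SE, adjusted p = 0.0278 in edgeR). Control axons were as high in 3 of 4 libraries, at 302, 281, 37.2 and 257 CPM.

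Srsf12 (chromosome 4, 33208991 to 33233340) encodes an SR-related protein that, with its relative Srsf10, is known for opposing splicing activation by SR proteins. It was at 53.6, 62.2, 144 and 80.9 CPM in the central axon Cre libraries and at 31.9, 29.6, 8.97 and 19.2 CPM in the Cre somas, again without overlap. The log2 difference was 1.48 ± 0.43 (SE, adjusted p = 0.0357 in edgeR). Central axon controls were at 56.3, 89.2, 23.8 and 73.7 CPM, with 3 of 4 inside the range of the Cre axons.

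Hnrnpul2 (chromosome 19, 8820010 to 8834143) encodes a protein related to the scaffold attachment factor hnRNP U. It was at 37.2, 77.5, 32.7 and 53.5 CPM in the central axon Cre libraries and at 58.4, 57.5, 127 and 158 CPM in the Cre somas. The groups overlapped, and the log2 difference was -1.45 ± 0.40 (SE, adjusted p = 0.0321 in edgeR). Soma controls were at no more than 26.2 CPM, below all Cre somas, and central axon controls at up to 98.3 CPM. Between central axon and soma controls all 3 U type genes were positive, opposite to Hnrnpul2 in Cre mice, and 0 were called. An overlapping gene on the same strand, AC129217.1, covers 5.06% of its exonic bases.

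Each of these 3 calls depended on single libraries: without 1 library at a time Hnrnpdl was lost in 6 of 8 fits, Srsf12 in 6 and Hnrnpul2 in 4, and a fit of all groups of the batch called 0. Central axon libraries carried more astrocyte and spinal neuron RNA than the somas. The 6 astrocyte markers summed to 706 to 2766 CPM beside 169 to 337 CPM in the Cre somas, with none at 0 in either group. The 6 spinal neuron markers summed to 89.6 to 310 CPM beside 1.56 to 8.73 CPM, and Gad2, Slc32a1, Slc6a5 and Chat were at 0 in all Cre somas. Their part in the 3 differences was not tested.

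**Figure D3:**
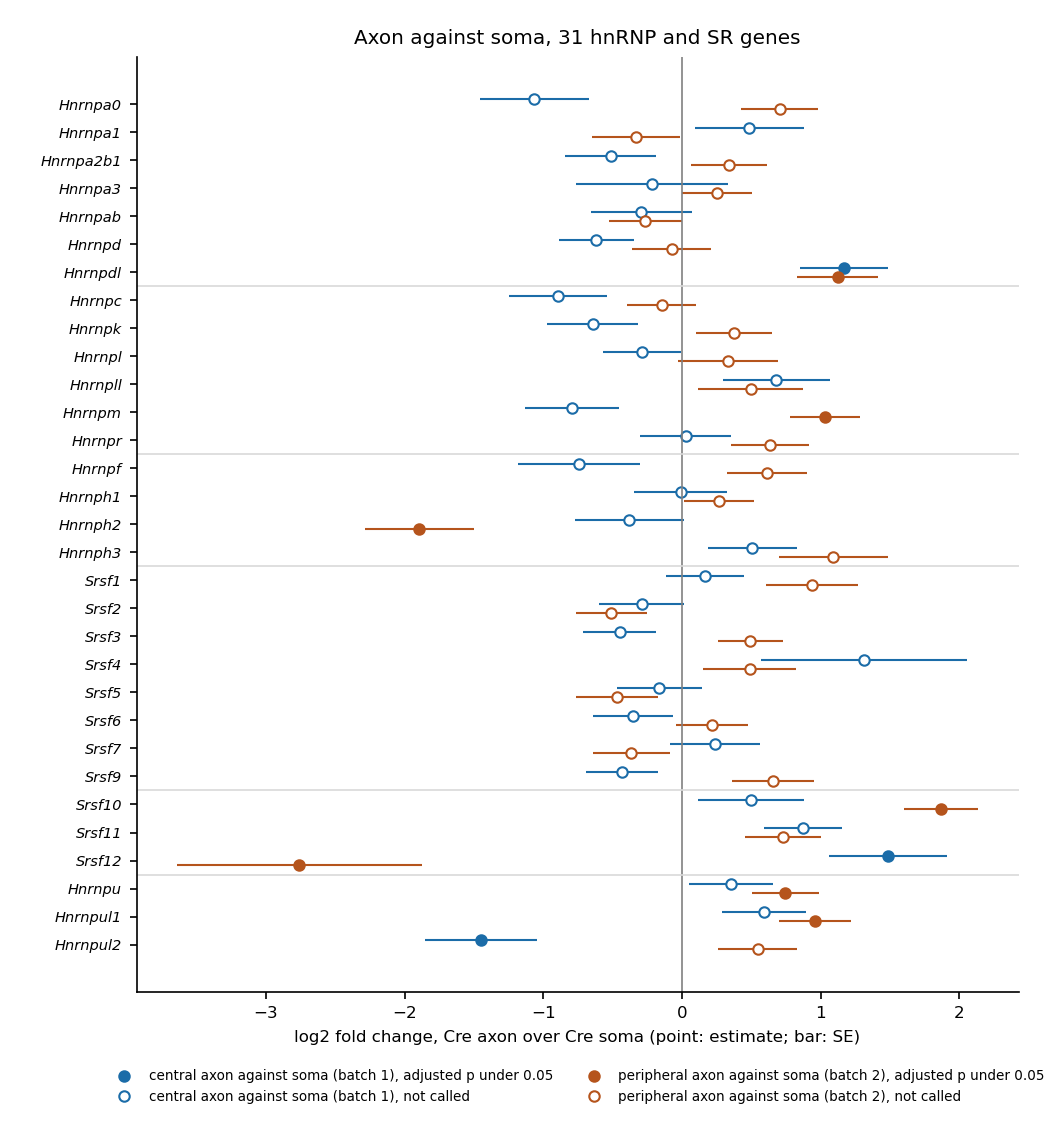
log2 fold change of each of the 31 genes between Cre axons and Cre somas of the same batch (horizontal axis), with bars of 1 SE, for central axons (blue) and peripheral axons (orange); filled points have an adjusted p under 0.05. Hnrnpdl is filled on the right for both axons and Srsf12 is filled on opposite sides.

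Peripheral axons and somas of the Cre mice differed in 7 of the 31 genes. Hnrnpdl, Hnrnpm, Hnrnpu, Hnrnpul1 and Srsf10 were higher in the axon, and Hnrnph2 and Srsf12 were lower. Of all 15467 genes tested 31.2% were called, 18.7% higher and 12.5% lower, so the count of 7 in 31 is not above the background. Libraries did not overlap, after TMM scaling, in 11 of 31 genes, against 38.7% of all genes. The median log2 difference of the 31 genes was 0.49 beside -0.03 over all genes, and 22 of 31 were positive. By type the medians were 0.25 for A/B and D type, 0.44 for F/H type, 0.44 for the other RNA-binding hnRNPs, 0.75 for U type, 0.35 for the SR proteins and 0.73 for the SR-related genes. With library totals as the only scaling, the median over all genes was 0.17 and the calls were 11 higher and 2 lower, against 21.4% of all genes higher and 9.5% lower.

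Among the A/B, D and M type hnRNPs, Hnrnpdl was at 285, 133, 201 and 197 CPM in the peripheral axon Cre libraries and at 75.4, 64.6, 108 and 69.8 CPM in the Cre somas. All axon libraries lay above all soma libraries, and the log2 difference was 1.12 ± 0.29 (SE, adjusted p = 0.0131 in edgeR). Hnrnpm (chromosome 17, 33646233 to 33686860) was at 273, 273, 399 and 359 CPM in axons and at 153, 137, 136 and 135 CPM in somas. It differed by 1.03 ± 0.25 (SE, adjusted p = 0.00975), also without overlap. Peripheral axon controls were at 137 CPM or more for Hnrnpdl and at 253 CPM or more for Hnrnpm, also above all Cre somas. March2, a gene on the same strand, overlaps 14.7% of the exonic bases of Hnrnpm.

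Of the 3 U type genes 2 were called. Hnrnpu (chromosome 1, 178321108 to 178337797) was at 537, 472, 421 and 650 CPM in peripheral axon Cre libraries and at 329, 229, 271 and 246 CPM in Cre somas, a log2 difference of 0.75 ± 0.24 (SE, adjusted p = 0.0368 in edgeR). Hnrnpul1 (chromosome 7, 25721165 to 25754757) was at 67.4, 68.9, 80.0 and 92.9 CPM in axons and at 44.9, 38.4, 26.2 and 31 CPM in somas, a log2 difference of 0.96 ± 0.26 (SE, adjusted p = 0.0161). For both genes the Cre axon libraries lay above the Cre soma libraries without overlap. Peripheral axon controls were at 654 CPM or more for Hnrnpu, above all Cre axon libraries, and at 46.0 CPM or more for Hnrnpul1. Hnrnpul2, lower in central axons, was at 93.9, 152, 93.0 and 89.8 CPM in peripheral axons and at 62.2, 84.2, 61.0 and 50.4 CPM in somas, 0.55 ± 0.28 (SE, adjusted p = 0.165), and was not called.

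Hnrnph2 (chromosome X, 134601179 to 134607060) encodes an hnRNP that binds runs of G. It was at 12.4, 25, 9.52 and 24.8 CPM in peripheral axon Cre libraries and at 56.7, 37.0, 64.3 and 74.7 CPM in Cre somas. Every axon library lay below every soma library, and the log2 difference was -1.89 ± 0.39 (SE, adjusted p = 0.00425 in edgeR). The peripheral axon controls were at 46.2, 29.6 and 66.8 CPM, above all 4 Cre axon libraries, although that difference was not called (log2 difference -1.29 ± 0.69 SE). The close relatives Hnrnph1 and Hnrnpf differed from soma by 0.27 and 0.61 and were not called. Hnrnph3 was at 75.4, 21.4, 38.6 and 65.5 CPM in axons and at 15.9, 16.1, 19.7 and 27.6 CPM in somas, a difference of 1.09 ± 0.39 (SE, adjusted p = 0.0534 in edgeR) that was not called.

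The SR-related genes Srsf10 and Srsf12 lie on chromosome 4 and are related in sequence, and they moved in opposite directions in peripheral axons. Srsf10 (135855747 to 135869908) was at 171, 83.8, 134 and 157 CPM in peripheral axon Cre libraries and at 40.1, 27.1, 31.7 and 30.4 CPM in Cre somas. It had the smallest p of the 31 genes, with a log2 difference of 1.87 ± 0.27 (SE, adjusted p = 0.000445 in edgeR) and no overlap. Srsf12 was at 0, 12.1, 7.81 and 1.39 CPM in peripheral axons and at 43.5, 26.0, 32.2 and 35.8 CPM in somas, a log2 difference of -2.76 ± 0.88 (SE, adjusted p = 0.0337). The library at 0 counts allows up to 0.730 CPM (3 counts, counting error only). In peripheral axon controls Srsf10 was at 98.1, 66.0 and 114 CPM and Srsf12 at 23.3, 9.56 and 0 CPM. In the soma controls of that batch Srsf10 was at 52.2, 51.1, 48.6 and 57.6 CPM, below all axon controls, and Srsf12 at 49.9, 35.0, 54.7 and 5.76 CPM, overlapping them.

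Coding sequence shows how far the pair can be told apart by reads. The most alike 60-base stretches, both at the start codon in exon 1, are shown with the 13 differing bases in capitals, from GENCODE M21 transcripts on GRCm38, plus strand, at chr4:135856227-135856286 for Srsf10 and chr4:33209306-33209365 for Srsf12.
Srsf10: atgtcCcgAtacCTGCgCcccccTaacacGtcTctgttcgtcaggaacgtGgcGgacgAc
Srsf12: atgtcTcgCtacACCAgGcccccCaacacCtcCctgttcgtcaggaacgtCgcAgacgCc
No 50-base window of the coding transcripts of Srsf12 occurs in another annotated gene, and 12.5% of those of Srsf10 do.

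**Figure D4:**
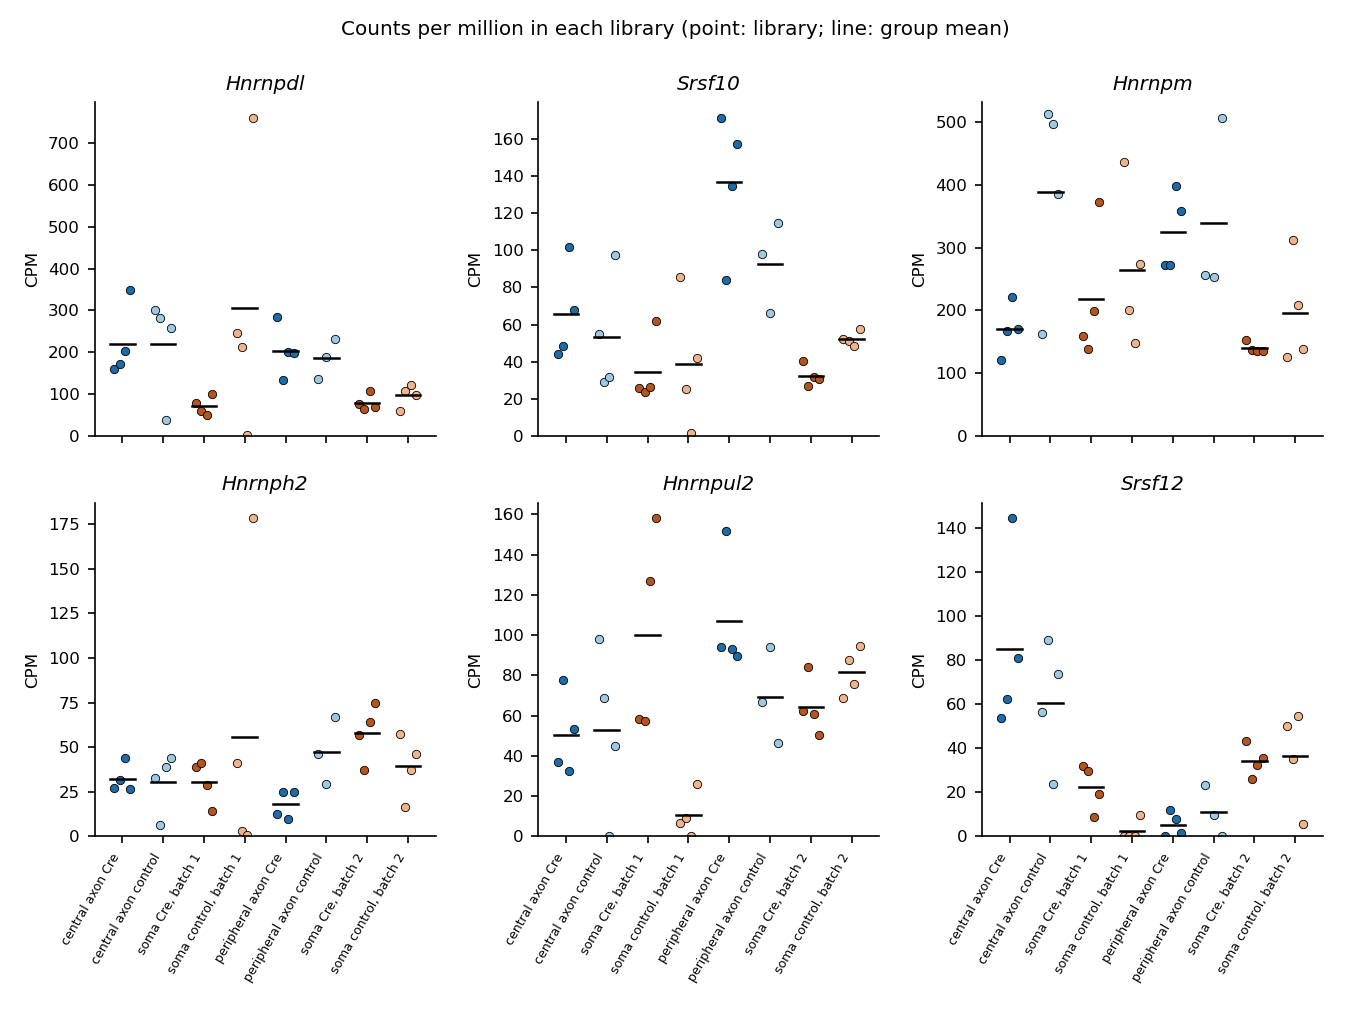
CPM in each library (points) and group means (lines) for 6 of the genes called between axon and soma, with the 4 groups of batch 1 on the left and the 4 of batch 2 on the right of each panel. Beside the Cre somas, Srsf10, Hnrnpdl and Hnrnpm are high in peripheral axon Cre libraries, Hnrnph2 is low there, and Srsf12 is high in central and low in peripheral axons. Peripheral axon controls also lie above the Cre somas of batch 2 for Srsf10, Hnrnpdl and Hnrnpm, starting at 66.0, 137 and 253 CPM.

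Hnrnph2 and Srsf10 were called under every alternative setting and with any 1 library left out. A fit of all groups of batch 2 called only these 2. With 1 library left out Hnrnpu was lost in 6 of 8 fits, Srsf12 in 5, Hnrnpul1 in 3, Hnrnpdl in 2 and Hnrnpm in 0. Markers of other cells moved with the comparison: the 8 Schwann cell markers summed to 10812 to 28473 CPM in peripheral axon Cre libraries and to 660 to 814 CPM in Cre somas. The 6 fibroblast markers summed to 3816 to 6686 CPM beside 173 to 364 CPM, and the 5 skeletal muscle markers to 620 to 2440 CPM beside 15.5 to 80.0 CPM. None of these markers was at 0 in all libraries of either group, and their part in the 7 differences was not tested.

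The difference between the 2 kinds of axon was tested as each axon's difference from the Cre somas of its own batch. It was called for 4 of 31 genes, against 13.1% of all 16725 genes (5.88% higher and 7.2% lower in peripheral), so this count is not above the background. Hnrnpa0, Hnrnpm and Hnrnpul2 were relatively higher in peripheral axons and Srsf12 relatively lower. The median over the 31 genes was 0.36 beside -0.26 over all genes. Levels in the somas enter this difference as well. From batch 1 to batch 2 the Cre somas differed by -0.63 for Hnrnpa0, -0.62 for Hnrnpm, -0.63 for Hnrnpul2 and 0.61 for Srsf12, none of them called.

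Srsf12 gave the largest difference of the 31 genes, -4.38 ± 1.00 (SE, adjusted p = 0.00809 in edgeR), from 1.48 in central and -2.76 in peripheral axons. Hnrnpul2 differed by 1.81 ± 0.51 (SE, adjusted p = 0.0243), from -1.45 and 0.55. Hnrnpm differed by 1.65 ± 0.42 (SE, adjusted p = 0.0142), from -0.80, which was not called, and 1.03. Hnrnpa0, a single-exon relative of hnRNP A1 (chromosome 13, 58125879 to 58128556), was called in neither axon alone, at -1.07 ± 0.39 (SE) in central and 0.70 ± 0.28 (SE) in peripheral axons, but the difference of 1.58 ± 0.49 (SE, adjusted p = 0.0379) was. Its level was 89.9, 112, 50.2 and 71.1 CPM in central and 170, 131, 118 and 196 CPM in peripheral axon Cre libraries, beside 83.6, 67.5, 164 and 186 CPM and 74.9, 120, 73.1 and 57.5 CPM in the somas of the respective batch. Scaling by library size alone added Hnrnph2 (lower), and DESeq2 called 9 genes. With any 1 of 16 libraries left out Srsf12 and Hnrnpm stayed called, Hnrnpa0 was lost in 8 fits and Hnrnpul2 in 4. Hnrnpdl, higher in both axons, did not differ between them beyond its error, at -0.21 ± 0.43 (SE, adjusted p = 0.803).

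The same axon and soma comparison in control mice measured RNA recovered without a tagged ribosome. Central axon controls and soma controls differed in 0 of 31 genes, against 0% of 9202 genes in edgeR, with 1 of 31 at an unadjusted p under 0.05 (12.4% of all genes), 0 with DESeq2 and 1 with voom (Srsf12, higher in the axon). Hnrnpd differed most by p, at -2.88 ± 1.37 (SE, adjusted p = 0.401), and by -0.0019 without soma control replicate 3. Hnrnpab differed by -2.22 ± 1.15 (SE, adjusted p = 0.449), and by -1.82 without it. Without soma control replicate b the values were -6.46 for Hnrnpd and -4.52 for Hnrnpab. Peripheral axon controls and soma controls differed in 0 of 31 genes, against 0.0802% of 13715 genes, with 2 of 31 at an unadjusted p under 0.05 (9.78% of all genes) and 0 with DESeq2 and voom. There 27 of 31 genes were positive, with a median of 0.56 beside -0.11 over all genes. Hnrnpc, at 195, 215 and 328 CPM in peripheral axon controls and 133, 120, 127 and 96.8 CPM in soma controls, differed by 0.93 ± 0.41 (SE, adjusted p = 0.475), and Srsf2 by 1.42 ± 0.62 (SE, adjusted p = 0.479).

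For the genes called in Cre peripheral axons the control values stood as follows. Hnrnpdl differed between axon and soma controls by 0.85 ± 0.45 (SE), Hnrnpm by 0.67 ± 0.46 (SE), Hnrnpu by 0.90 ± 0.42 (SE) and Hnrnpul1 by 0.66 ± 0.66 (SE). Srsf10 differed by 0.70 ± 0.51 (SE), Srsf12 by -1.76 ± 1.52 (SE) and Hnrnph2 by 0.12 ± 0.73 (SE). All but Hnrnph2 thus had the sign seen in the Cre libraries, and for Hnrnph2 the Cre difference minus the control difference was -2.20 ± 0.75 (SE, adjusted p = 0.339 in edgeR). Tested this way, 0 of 31 genes were called in batch 1 (0% of 15355 genes) and 0 of 31 in batch 2 (0.00636% of 15717 genes). The counts at an unadjusted p under 0.05 were 0 and 4, where 20.4% and 9.74% of all genes passed, and DESeq2 and voom called 0 in each. Srsf2 had the smallest p in batch 2, at -2.10 ± 0.69 (SE, adjusted p = 0.336). In batch 1 Hnrnpab, at 1.82 ± 0.98 (SE, adjusted p = 0.298), and Hnrnpul2, at -3.32 ± 1.90 (SE, adjusted p = 0.336), had the smallest p. Without soma control replicate 3 of batch 1 they were 1.88 and -2.86, and 0 of 31 genes were called. With any 1 library left out Hnrnpab ran from 1.57 to 4.31, the highest without soma control replicate b, and Hnrnpul2 from -3.77 to -2.77.

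Other genes of the splicing machinery were read from 4 lists. Of 14 genes for hnRNP proteins under other symbols, 2 were higher and 2 lower in central axon Cre libraries than in somas, and 3 were higher and 2 lower in peripheral axons. Over all genes the shares were 8.63% higher and 5.11% lower in central axons and 18.7% higher and 12.5% lower in peripheral axons, and the 3 and 2 of 14 there are near these shares. Ptbp1, the polypyrimidine tract-binding protein that neurons are known to repress, was higher in both: at 19.1 ± 8.58 against 2.77 ± 1.37 CPM (TMM-scaled, SD, n = 4 each) in central axons and somas, a log2 difference of 2.78 ± 0.62 (SE, adjusted p = 0.0122 in edgeR). In peripheral axons it was at 75.6 ± 37.7 against 7.52 ± 1.64 CPM (SD, n = 4 each), a difference of 3.33 ± 0.42 (SE, adjusted p = 0.000186). Rbmx, the X-linked hnRNP G gene, was higher in central axons, at 1.95 ± 0.38 (SE, adjusted p = 0.00616), and Raly was lower, at -1.28 ± 0.35 (SE, adjusted p = 0.0306). In peripheral axons the poly(C)-binding Pcbp3 was lower, at -2.20 ± 0.40 (SE, adjusted p = 0.00189). Of the list of SR-related proteins and SR regulators 4 of 13 tested genes were higher and 0 lower in central axons, and 7 of 14 were higher and 0 lower in peripheral axons, beside 8.63% and 18.7% of all genes higher. The splicing coactivator Srrm2 was higher in central axons by 1.72 ± 0.37 (SE, adjusted p = 0.0103), and the nuclear speckle protein Son in peripheral axons by 1.83 ± 0.28 (SE, adjusted p = 0.000675). Srrm1, at 1.34 and 0.92, and the SR protein kinase Clk1, at 2.09 and 2.47 on the log2 scale, were higher in both axons. Axon controls overlapped the Cre axons for this list. Its 14 genes summed to 2594 to 3807 CPM in central axon controls beside 2177 to 5385 CPM in Cre libraries. In peripheral axons they summed to 2796 to 4470 CPM in controls beside 2377 to 3251 CPM in Cre libraries. Between Cre and control axons 0 genes of the 4 lists were called, beside 0.0141% of all genes in central and 0% in peripheral axons.

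Of 35 spliceosome genes 2 were higher and 7 lower in central axons, beside 8.63% and 5.11% of all genes. In peripheral axons 2 were higher and 5 lower, beside 18.7% and 12.5% of all genes. The 2 of 35 higher are not above these shares in either axon, and the 5 of 35 lower in peripheral axons are near 12.5%. Sf3b1, the branch point binding subunit, was higher in both, by 2.24 ± 0.46 (SE) in central and 0.80 ± 0.24 (SE) in peripheral axons. Those lower in central axons included genes of the small Sm core proteins, Snrpe (-1.95 ± 0.38 SE, adjusted p = 0.00675 in edgeR), Snrpd1 (-1.48), Snrpd3 (-1.48) and Snrpg (-1.34), and Snrpb2 (-1.51), which encodes a protein specific to the U2 snRNP, and those lower in peripheral axons were Snrpn, Sf3b4 (-2.30), Snrpc (-1.04), Snrpa (-0.93) and Snrpb (-0.85). Snrpn, a neuronal paralog of Snrpb, differed in peripheral axons by -2.73 ± 0.30 (SE, adjusted p = 8.97e-05), from 1306 ± 281 CPM in somas to 198 ± 35.8 CPM in axons (TMM-scaled, SD, n = 4 each). Of 5 RNAs retained in nuclei 4 were higher in peripheral axons, beside 18.7% of all genes. In central axons 2 were higher, Meg3 and Snhg11, beside 8.63% of all genes. The 5 summed to 7664 to 16828 CPM in peripheral axon Cre libraries beside 246 to 964 CPM in Cre somas. In central axon Cre libraries they summed to 7404 to 15771 CPM, overlapping the Cre somas at 316 to 13254 CPM. Malat1 differed in peripheral axons by 4.17 ± 0.57 (SE, adjusted p = 0.000332). Axon controls also held these 5 RNAs, at 4831 to 11070 CPM in central and 8384 to 11562 CPM in peripheral axons. The part of nuclear RNA in the axon differences of the 31 genes was not tested.

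Between the Cre somas of the 2 batches, which are the same tissue and genotype, 3 of 31 genes differed, against 9.69% of all 14899 genes (8.34% higher and 1.36% lower in batch 2). The count of 3 in 31 is thus not above the background. All 3 were higher in batch 2, as were most of the genes called over all genes. Hnrnpa1, which encodes the abundant splicing repressor hnRNP A1 (chromosome 15, 103240432 to 103246692), was at 9.74, 12.8, 9.23 and 13.5 CPM in batch 1 and at 79.1, 65.0, 98 and 86.9 CPM in batch 2, a log2 difference of 2.87 ± 0.25 (SE, adjusted p = 9.94e-06 in edgeR). Hnrnpa3 (chromosome 2, 75659261 to 75669407) was at 4.76, 7.40, 17.4 and 10.1 CPM in batch 1 and at 38.5, 49.5, 49.8 and 46.2 CPM in batch 2, a difference of 2.19 ± 0.39 (SE, adjusted p = 0.00247). Srsf4 (chromosome 4, 131873617 to 131901706) was at 6.94, 10.8, 0.518 and 2.65 CPM in batch 1 and at 36.0, 31.7, 27.2 and 30.0 CPM in batch 2, a difference of 2.58 ± 0.62 (SE, adjusted p = 0.0174). None of the 3 overlapped between batches, as 7 of 31 genes and 16.8% of all genes did not after TMM scaling; Srsf4 was lost without batch 2 Cre soma replicate 5 or 6. The median over the 31 genes was -0.01, beside 0.0049 over all genes.

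The axons followed the same order. Hnrnpa1 was at no more than 25.3 CPM in central axon Cre libraries and at 42.2 CPM or more in peripheral ones, and its controls were at no more than 30.0 and at 48.1 CPM or more. Hnrnpa3 was at no more than 16.2 CPM in central and at 56.5 CPM or more in peripheral axon Cre libraries. Hnrnpf, not called between somas (0.93 on the log2 scale), was at no more than 12.4 and at 35.4 CPM or more, and Srsf4 overlapped, at up to 25.9 and from 25 CPM. Levels of these genes in central and peripheral axons therefore cannot be told apart from batch, and axon was compared only with soma of the same batch. Soma controls of the batches overlapped for all 4 genes, but those of batch 1 were widely spread. Among them Srsf4 had at most 3 counts in replicates 1, 3 and b, Hnrnpa3 in 1 and a, Hnrnpa1 in 3 and Hnrnpf in b. The highest batch 1 soma controls were at 79.3, 42.5, 43.5 and 67.1 CPM for these genes in that order.

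These 4 genes share much of their exonic sequence with other annotated genes. The share of 50-base windows of the coding transcripts found in another gene was 65.4% for Srsf4, 61.9% for Hnrnpf, 46.7% for Hnrnpa1 and 27.7% for Hnrnpa3, and 25% or more also for Srsf2 (31.8%), Srsf3 (31.5%) and Hnrnpk (25.6%), which were not called. The 7 genes at 25% or more had a median log2 difference between batches of 0.93, and the other 24 a median of -0.13, from -0.78 to 0.89. Over the 31 genes, which share libraries, Pearson's r between the share of windows and the batch difference was 0.73. Neither the split at 25% nor r was planned, and the genes called between batches are all among the 7. The share joins overlaps at the same locus, as for Srsf4, with copies elsewhere, as for Hnrnpa1. Copies of Hnrnpa1 and Hnrnpa3 with 100 or more shared windows each averaged no more than 0.273 CPM in the Cre somas of either batch. How reads that fit several genes were counted in each batch is not given in the sources used here, and its part in the batch difference was not tested.

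Shared stretches of Hnrnpa3 and Srsf4 are shown because reads from them fit more than 1 gene; capitals mark bases that differ from the hnRNP gene, and sequences are from GENCODE M21 transcripts on GRCm38. A stretch of exon 2 of Hnrnpa3 (chr2:75661506-75661565, plus strand) is identical in 18 of 24 noncoding genes that share 100 or more windows with it, among them Gm5641 (chr3:54481512-54481571, plus strand), and differs at 1 base in Gm7551 (chr7:65784904-65784963, plus strand).
Hnrnpa3: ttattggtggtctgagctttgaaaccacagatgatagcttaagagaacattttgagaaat
Gm7551: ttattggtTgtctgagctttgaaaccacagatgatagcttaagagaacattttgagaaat
Srsf4 shares its windows with an antisense gene at the same locus, Gm12992, which overlaps 43.0% of its exonic bases. The stretch is from exon 5 (chr4:131900062-131900121, plus strand), and Gm12992 holds its reverse complement.
Srsf4: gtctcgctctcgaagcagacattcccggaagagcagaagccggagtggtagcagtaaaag
Gm12992 itself was counted at a mean of 0.0259 CPM in the batch 1 Cre somas and at 27.0 CPM in the batch 2 Cre somas. Reads from the bases that Srsf4 and Gm12992 share cannot be told apart by sequence alone, and how they were counted is not given in the sources used here.

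**Figure D5:**
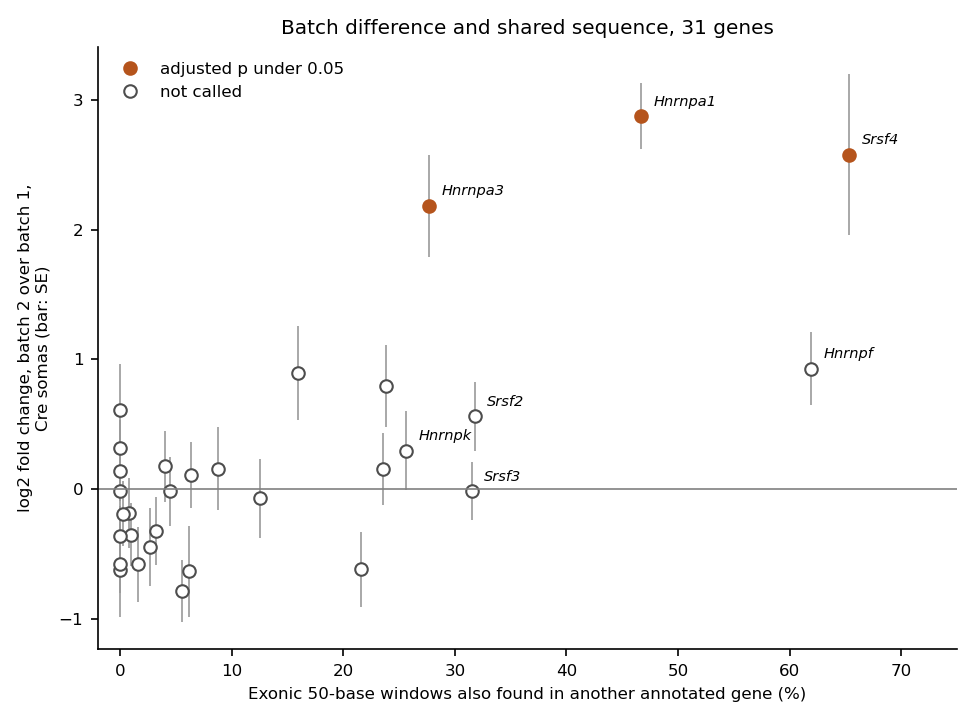
Share of 50-base windows that each gene's coding transcripts share with another annotated gene (horizontal axis, %) against the log2 fold change between the Cre somas of batch 2 and batch 1 (vertical axis, bars of 1 SE), one point per gene; filled points have an adjusted p under 0.05 and genes at 25% or more are named. The 3 filled points are Hnrnpa1, Hnrnpa3 and Srsf4, and Srsf2, Srsf3 and Hnrnpk lie near 0 to 0.6 at a share of 25 to 32%.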

How the data were processed

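RNA from ribosome pulldowns of 31 libraries was analysed from 2 tables of raw counts per gene deposited by the authors, one per batch. STAR 2.7.2b and the mm10 build are named per the submitters' processing notes, and libraries were made with a SMART-Seq v4 kit per the labels' protocols; the counting program and its handling of strand and of reads that fit several genes are not given in the sources used here. A name heads 2 soma control columns of batch 1, which were used as replicates a and b. Symbols and coordinates came from GENCODE M21 (GRCm38).

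Each comparison was fitted on its own groups with edgeR 4.0.16 in R 4.3.3 (filterByExpr, minimum count 10 and total 15; TMM; quasi-likelihood test) with Benjamini-Hochberg adjustment over all genes tested, and a gene with an adjusted p under 0.05 counts as called. The SE is the log2 fold change over the square root of F. CPM in the text is over the library total, and fold changes are on TMM-scaled counts. P-values measure the spread between these libraries, and counting limits cover counting error only. The code was tested on simulated data. Alternatives were library size and RLE scaling, other count filters, DESeq2 1.42.0, voom in limma 3.58.1, all groups of a batch in 1 fit, a replicate block and leaving out each library.

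The members, gene lists, tests and named genes were chosen with earlier results of these data known. Hnrnpa2b1 and Hnrnpk were named in every comparison, with every called member; where none was called, the 2 with the smallest p were named, as were the highest and lowest per length in Cre somas. Of the other lists, up to 2 called genes per direction with the smallest adjusted p were to be named. Other genes given as examples of a list, a relative or shared sequence, such as Hnrnpf, Srrm1, Clk1, Malat1 and Gm12992, were chosen after their values were seen. Protein sequences were not used here. Some items are not reported here.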

Additional observations from a re-analysis of the deposited data

Results flagged for a closer look

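In groups of 4 libraries, 79 sets of values of the named genes were checked for a library far from the others, and 4 had one, where chance gives about 1 in 20. Hnrnpa2b1 was at 1091 CPM in central axon control replicate 4, beside 423 to 477 CPM in the other 3, and leaving that library out turned its difference between Cre and control from -0.23 to 0.23. Hnrnpa2b1 was at 542 CPM in soma control replicate 7 of batch 2, beside 292 to 318 CPM. Hnrnpm was at 153 CPM in Cre soma replicate 5 of batch 2, beside 135 to 137 CPM. Hnrnpul2 was at 152 CPM in peripheral axon Cre replicate 2, beside 89.8 to 93.9 CPM.

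Between peripheral and central axons, each relative to the Cre somas of its batch, a tested difference was found for Srsf12 (-4.38 on the log2 scale), Hnrnpul2 (1.81), Hnrnpm (1.65) and Hnrnpa0 (1.58). Axon type and batch are confounded apart from the somas that both batches hold.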

How the results depend on the processing

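Calls of Hnrnph2 and Srsf10 in peripheral axons, of Srsf12 and Hnrnpm between the axons, and of Hnrnpa1 and Hnrnpa3 between batches held under every alternative run, with each library left out as well. The number of the 31 genes called moved by over 1.5 times as follows, and the cause was not tested. DESeq2 called 2 instead of 0 in the batch 1 soma between Cre and control, 9 instead of 4 between the axons and 5 instead of 3 between batches. All groups of a batch in 1 fit called 0 instead of 3 in central axons, 2 instead of 7 in peripheral axons and 1 instead of 0 (Srsf12) between central axon and soma controls, where voom also called 1. Library size scaling called 13 instead of 7 in peripheral axons. With each library left out in turn the counts ran from 0 to 1 and from 0 to 2 for Cre against control in the somas of batches 1 and 2, from 0 to 3 in central and 3 to 9 in peripheral axons against soma, from 2 to 5 between the axons and from 2 to 4 between batches.

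Same-numbered replicates were not shown to pair, though pairing was not excluded. Their deviations correlated at 0.199, -0.010, 0.090 and 0.178 between central axon and soma of Cre mice. The mean of these was 0.114, beside -0.038 for libraries of different numbers, and only replicate 1 matched its own number best. Peripheral axons share no numbers with their somas. With a replicate block 1 gene (Hnrnpdl) instead of 3 was called in central axons against soma, where the adjusted p in edgeR was 0.0517 for Hnrnpul2 and 0.0629 for Srsf12, and Hnrnpa2b1 between peripheral axon Cre and control was 0.026 instead of -0.05 on the log2 scale.

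Other small differences changed sign, none of them called. Library size scaling gave 0.089 for Hnrnpk and all groups in 1 fit 0.080 in the batch 1 soma, against -0.36. In the batch 2 soma library size scaling gave -0.046 for Hnrnpa2b1, and for Hnrnpk no filter gave 0.017 and all groups in 1 fit 0.029. For Hnrnpk between central axon and soma controls library size scaling gave 0.33, no filter 0.24, voom 0.23 and all groups in 1 fit 0.18, and library size scaling gave 0.018 for its Cre minus control difference in batch 2. Leaving out each library gave, for Cre against control, -0.36 to 0.23 for Hnrnpa2b1 in central and -0.19 to 0.036 in peripheral axons, -5.55 to 0.050 for Hnrnpf and -0.58 to 0.084 for Hnrnpk in the batch 1 soma, and -0.17 to 0.11 for Hnrnpk in the batch 2 soma. Hnrnpk ran from -0.24 to 0.15 between central axon and soma controls and from -0.63 to 0.034 for Cre minus control in batch 1.

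Groups of 3 or 4 libraries, other cells' RNA in the axon libraries and 1 divergent soma control limit these comparisons. Low counts limit Srsf12 in peripheral axons.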
